A study of Homo sapiens with 12 samples.

Results

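The genes described here are VIM, which encodes vimentin, and 7 markers and regulators of the epithelial and mesenchymal cell states: CDH1, CTNND1, EPCAM, ESRP1, GRHL2, ZEB1 and SNAI2. They were found by gene symbol, 8 of the 15798 genes in the count table. VIM was chosen on its measured change with trametinib, namely a ribosome density that moved against that of the rest of the 5'TOP mRNAs (mRNAs that open with a terminal oligopyrimidine tract at the 5' end), so every trametinib value of VIM is given as a description with no test. The same holds for the ribosome density of all 8 genes. In the deposited table VIM was the 1 gene of these 8 that carried the 5'TOP mark.

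The data are ribosome profiling libraries of HCT116 cells, a line grown from a human colorectal carcinoma. Cells received 100 nM trametinib, a MEK1/2 inhibitor, or the solvent DMSO for 24 h, and each condition gave 3 input RNA libraries and 3 libraries of ribosome footprints, the mRNA stretches that a ribosome shields from RNase. The 4 groups are input with DMSO, input with trametinib, footprints with DMSO and footprints with trametinib, 12 libraries in all. All cells come from this 1 line with no other alteration named in the labels. Nothing in the labels says whether the 3 samples of a group were separate cultures. The study's supplement calls the 3 replicates behind its fold-changes biological, without saying how they were kept apart. P-values measure the spread between these samples, which may be in part technical.

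Epithelial cells adhere through cadherins and tight junctions, while mesenchymal cells lose these contacts and build a vimentin filament network, and the passage between the states is the epithelial-mesenchymal transition (EMT). Repressors such as ZEB1, SNAI1 and SNAI2 bind the CDH1 promoter and shut the gene, and GRHL2 and the splicing factor ESRP1 keep epithelial gene programs active. A 5'TOP mRNA starts with a C followed by a run of pyrimidines, and its translation is known to fall when mTORC1 signaling is low. Most such mRNAs encode ribosomal proteins and translation factors.

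The start of an mRNA is where a 5'TOP tract is read, so the first 30 bases of the annotated transcripts are shown for VIM and for 3 other 5'TOP genes (GRCh38, Gencode v44). Capitals mark the unbroken run of pyrimidines that opens with C at the first base.
VIM-209, the canonical transcript, chr10:17228241-17228270, plus strand: gggaggcccacgtatggcgcctctccaaag
VIM-201, chr10:17229278-17229307, plus strand: CTCTgccactctcgctccgaggtccccgcg
RPS6-204, chr9:19380207-19380236, minus strand: CTCTTTTCCgtggcgcctcggaggcgttca
EEF2-201, chr19:3985434-3985463, minus strand: CTCTTCCgccgtcgtcgccgccatcctcgg
EEF1G-201, chr11:62573862-62573891, minus strand: actttgcggcagcgccgagaaccccacccc
The canonical VIM transcript had no such run, and VIM-201 opened with a run of 4 bases. RPS6 had 9 and EEF2 had 7, while the annotated start of EEF1G had none. A start with C and at least 4 further pyrimidines was found for 60 of 79 cytosolic ribosomal protein genes (76.0%), for 13 of 15 other 5'TOP genes (86.7%) and for 917 of all 20007 protein-coding genes (4.58%), each taken at its canonical transcript. These are annotated starts, and where transcription began in these cells was not measured.

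Library totals ran from 2276693 to 2845568 counts for the 6 of input and from 10127477 to 19181588 for the 6 of footprints. A normalized count is a count divided by the size factor of its library, given below for replicates 1, 2 and 3 in this order and as mean ± SD with n = 3. A change is the log2 ratio of trametinib over DMSO with its standard error (SE), tested for input and for footprints by edgeR's quasi-likelihood test with Benjamini-Hochberg adjustment, and a gene is called when the adjusted p is under 0.05. All levels are relative to the other mRNAs of a library, so a change in translation common to all mRNAs is not seen. In such bulk samples, fewer cells of a type and less RNA per cell cannot be told apart. Of the 8 genes, 6 could be fitted in input and 7 in footprints. CTNND1 and SNAI2 had too few input counts, SNAI2 had too few footprints, VIM passed the input filter through the DMSO libraries alone, and ZEB1 through these and 1 trametinib library.

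The cells were checked against cell type markers. The epithelial markers CDH1, EPCAM, KRT8, KRT18, KRT19, CDX1 and CDX2 summed to between 29270 and 44460 normalized counts in DMSO input and to between 48950 and 61130 in trametinib input, with CDX1 at 0 in all 6 libraries. The 3 keratins made up most of these sums, at 27060 to 41940 and 45740 to 58500. The 11 fibroblast markers in the table summed to between 88.6 and 134 in DMSO input and to between 176 and 206 in trametinib input, with PDGFRA and POSTN at 0 in all of them. Of this list the collagen gene COL3A1 was called, in both assays, from 0, 1 and 0 to 31, 42 and 25 raw input counts, and it passed the filter through trametinib alone. The 9 blood and endothelial markers summed to between 4.68 and 32.4 in DMSO input and to between 57.8 and 69.5 in trametinib input, mostly from VWF. Their part in the results below was not tested.

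VIM input RNA was lower in trametinib. The 3 DMSO input libraries held 43.1, 58.3 and 37.5 normalized counts of VIM (46.3 ± 10.8), from 63 raw counts in all with an exact 95% Poisson interval of 48.4 to 80.6. The 3 trametinib input libraries held 4.81, 18.0 and 10.3 (11.04 ± 6.63), from 13 raw counts with an interval of 6.92 to 22.2. Every trametinib library lay below every DMSO library. The fitted change in input was -2.08 (SE 0.44), which leaves 23.6% of the DMSO level. Such intervals cover counting error only.

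VIM footprints were lower in trametinib as well, by a smaller factor. The DMSO footprint libraries held 62.3, 64.5 and 51.2 normalized counts (59.3 ± 7.09) from 407 raw counts. The trametinib footprint libraries held 26.4, 30.8 and 29.5 (28.9 ± 2.26) from 223 raw counts. The groups did not overlap here either, and the fitted change was -1.04 (SE 0.17), or 48.5% of the DMSO level. VIM lies on chromosome 10 from 17228241 to 17237593 on the plus strand (GRCh38, ENSG00000026025.16).

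**Figure D1:**
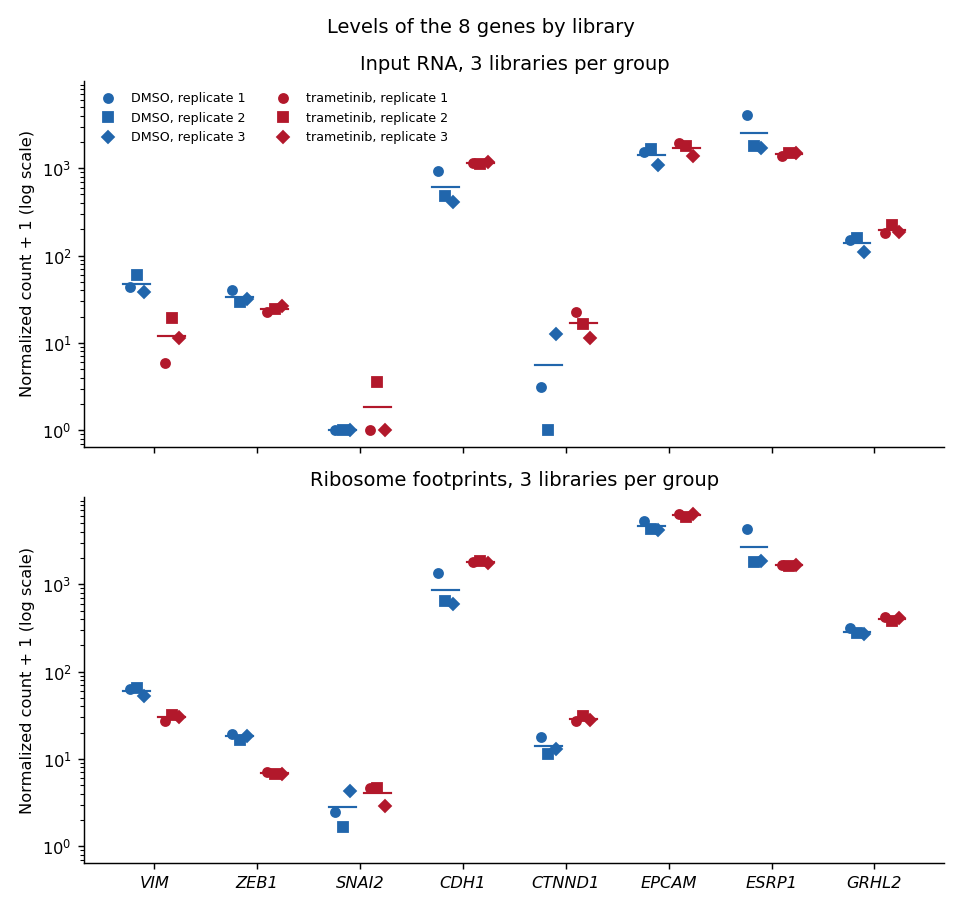
Normalized counts + 1 on a log axis for the 8 genes, input RNA in the upper panel and ribosome footprints in the lower, with 1 symbol per library, blue for DMSO, red for trametinib and a line at the mean of 3. VIM, ZEB1 and ESRP1 sit lower in trametinib in both assays, and CDH1 and GRHL2 sit higher in both. The input changes of ZEB1 and GRHL2 and the footprint change of ESRP1 were not called. Replicate 1 of DMSO stands above the other replicates for CDH1 and ESRP1.

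Footprints over input gives the ribosome density, the load of ribosomes on an mRNA relative to that of the other mRNAs. The study's polysome profiling reports that MEK1/2 inhibition lowered global translation in this line. A fall common to all mRNAs is not part of this ratio, so a higher value need not mean more ribosomes per mRNA. For VIM it was 1.44, 1.11 and 1.37 in the DMSO dishes 1, 2 and 3 and 5.49, 1.71 and 2.87 in the trametinib dishes, where a dish means the input and footprint libraries with the same treatment and number. All trametinib dishes were higher, and dish 1, the highest, rests on 2 raw input counts of VIM. The fitted change in VIM ribosome density was 1.05 (SE 0.53). Without the trametinib input library of replicate 1 it was 0.68, and without that of replicate 2 it was 1.61.

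CDH1 encodes E-cadherin, the adhesion receptor of epithelial adherens junctions, and it was higher in trametinib in both assays. Its input held 917, 484 and 407 normalized counts in DMSO (603 ± 275) and 1146, 1114 and 1183 in trametinib (1147 ± 34.2). The groups did not overlap, although DMSO replicate 1 came closer to trametinib than the others. The input change was 0.93 (SE 0.25, edgeR adjusted p = 0.0115). Leaving out DMSO replicate 1 raised it to 1.37, and leaving out DMSO replicate 2 lowered it to 0.80 and ended the call (edgeR adjusted p = 0.0605).

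CDH1 footprints rose by a like amount. They were 1334, 638 and 591 in DMSO (854 ± 416) and 1801, 1845 and 1744 in trametinib (1797 ± 50.8). Here too every trametinib library was above every DMSO library, with replicate 1 the highest in DMSO. The change was 1.06 (SE 0.28, edgeR adjusted p = 0.0116), and 1.54 without DMSO replicate 1.

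CTNND1 encodes a catenin that binds the inner tail of E-cadherin and holds it at the membrane. Input counts were near 0, with 1, 0 and 5 raw counts in DMSO and 9, 6 and 4 in trametinib, so no input change is given. Footprints were 16.9, 10.4 and 12.2 normalized counts in DMSO (13.2 ± 3.38) and 26.1, 29.99 and 26.6 in trametinib (27.6 ± 2.11). The trametinib libraries were all higher, by 1.03 (SE 0.23, edgeR adjusted p = 0.00528). Its level is uncertain, since the table also lists the readthrough gene TMX2-CTNND1 and reads shared between symbols were not counted.

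EPCAM encodes the epithelial cell adhesion molecule, a surface protein of most carcinoma cells. Input held 1542, 1668 and 1079 normalized counts in DMSO (1430 ± 310) and 1966, 1801 and 1375 in trametinib (1714 ± 305). These groups overlapped and the change of 0.27 was not called (SE 0.19, edgeR adjusted p = 0.297). Footprints were 5279, 4329 and 4184 in DMSO (4597 ± 595) and 6419, 5919 and 6396 in trametinib (6245 ± 282). They did not overlap, and the change of 0.43 was called (SE 0.13, edgeR adjusted p = 0.0212). This call was lost on leaving out any 1 library other than DMSO replicate 1, with changes of 0.37 to 0.46 in those 5 fits.

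ESRP1 is the splicing factor that sets epithelial isoforms, and its values turned on 1 library. Input held 4032, 1808 and 1719 normalized counts in DMSO (2519 ± 1310) and 1386, 1485 and 1489 in trametinib (1453 ± 58.0). The trametinib libraries were all lower, and DMSO replicate 1 stood far above the other two. The input change was -0.79 (SE 0.27, edgeR adjusted p = 0.0405). Without DMSO replicate 1 it was -0.27 and not called (edgeR adjusted p = 0.143), and the call was also lost without any 1 of the trametinib libraries, at changes of -0.75 to -0.81.

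ESRP1 footprints had the same shape. They were 4321, 1813 and 1828 in DMSO (2654 ± 1443) and 1678, 1604 and 1680 in trametinib (1654 ± 43.4). The change of -0.69 was not called (SE 0.30, edgeR adjusted p = 0.0886). Leaving out DMSO replicate 1 gave -0.15 (edgeR adjusted p = 0.197), while leaving out either of the other DMSO replicates gave -0.90 and a call.

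GRHL2 is a transcription factor that binds enhancers of epithelial genes, CDH1 among them. Input held 151, 158 and 110 normalized counts in DMSO (140 ± 25.8) and 178, 221 and 185 in trametinib (195 ± 23.2). All trametinib libraries were higher, and the change of 0.49 was not called (SE 0.21, edgeR adjusted p = 0.0926). Footprints were 314, 276 and 268 in DMSO (286 ± 24.6) and 416, 375 and 411 in trametinib (401 ± 22.3). That rise of 0.48 was called (SE 0.11, edgeR adjusted p = 0.0063).

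ZEB1 is a zinc finger repressor of CDH1 and a driver of the mesenchymal state. Input held 38.8, 28.1 and 30.4 normalized counts in DMSO (32.5 ± 5.65) and 21.7, 23.2 and 25.7 in trametinib (23.5 ± 2.05). The trametinib libraries were all lower, from 9, 9 and 10 raw counts, and the change of -0.46 was not called (SE 0.34, edgeR adjusted p = 0.328). Footprints were 18.4, 15.6 and 17.3 in DMSO (17.1 ± 1.40) and 6.14, 5.75 and 5.71 in trametinib (5.87 ± 0.24). They fell by 1.56 on the log2 scale (SE 0.23, edgeR adjusted p = 6.63e-04), with no overlap.

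SNAI2, a repressor of CDH1 related to SNAI1, was at the limit of counting. Input held 0, 0 and 0 raw counts in DMSO and 0, 1 and 0 in trametinib. Footprints held 4, 1 and 9 in DMSO and 12, 9 and 4 in trametinib. The groups overlapped, no fold is given, and a difference was not detectable at this depth.

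In input, 1 of the 5 genes tested beside VIM was called higher (CDH1) and 1 lower (ESRP1). Over all 10663 genes tested in input, 15.4% were called higher and 16.8% lower. In footprints, 4 of the 6 genes tested beside VIM were called higher (CDH1, CTNND1, EPCAM and GRHL2) and 1 lower (ZEB1). Over all 11941 genes tested in footprints, 24.1% were called higher and 24.5% lower. Without DMSO replicate 1 the footprint calls were again 4 and 1, and in input CDH1 kept its call and ESRP1 lost it.

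**Figure D2:**
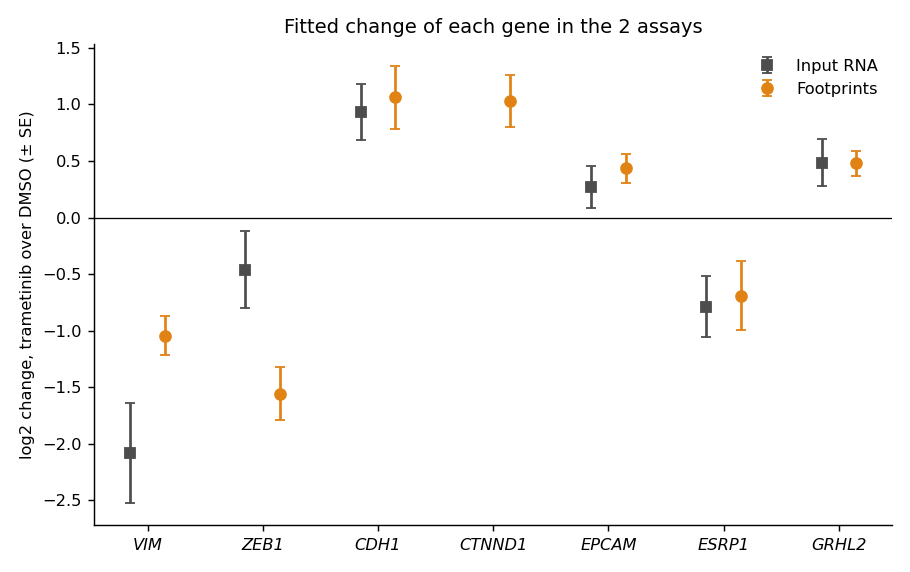
Fitted log2 change of trametinib over DMSO with its SE, grey squares for input RNA and orange circles for footprints, 3 libraries per group, with no input value for CTNND1. Input and footprint values lie close together for CDH1, EPCAM, ESRP1 and GRHL2, while VIM lies lower in input (-2.08) than in footprints (-1.04) and ZEB1 lies higher in input (-0.46) than in footprints (-1.56).

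The ribosome density of ZEB1 was lower in the trametinib dishes. It was 0.474, 0.557 and 0.569 in the DMSO dishes and 0.284, 0.248 and 0.222 in the trametinib dishes. The dishes did not overlap and the fitted change was -1.08 (SE 0.53), with a range of -1.24 to -0.996 when each library was left out in turn. The other 4 genes had fitted density changes of 0.14 (CDH1, SE 0.44), 0.18 (EPCAM, SE 0.26), 0.11 (ESRP1, SE 0.49) and 0.01 (GRHL2, SE 0.23) in a fit that does not tie input and footprints of a dish. By dish, CDH1 stood at 1.455, 1.32 and 1.45 with DMSO and at 1.57, 1.66 and 1.48 with trametinib. ESRP1 stood at 1.07, 1.00 and 1.06 with DMSO and at 1.21, 1.08 and 1.13 with trametinib. For both genes the trametinib dishes lay above the DMSO dishes by a small margin, with fitted changes smaller than their SE, while EPCAM and GRHL2 overlapped. The share of all genes whose dishes do not overlap was not counted, so such separations, those of VIM and ZEB1 among them, are a description only. Over all 10623 genes in this fit, 0.339% were called with a higher and 1.41% with a lower ribosome density by the likelihood ratio test of DESeq2. The first count was 36 genes, 22 with a replicate block over all libraries and 28 with a block for each dish. The second count was 150 genes, and 145 and 167 with these blocks. The test's own filter on low mean counts left VIM and ZEB1 without an adjusted p. In all, 1238 of the 10623 genes had no adjusted p, so only 9385 could be called.

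**Figure D3:**
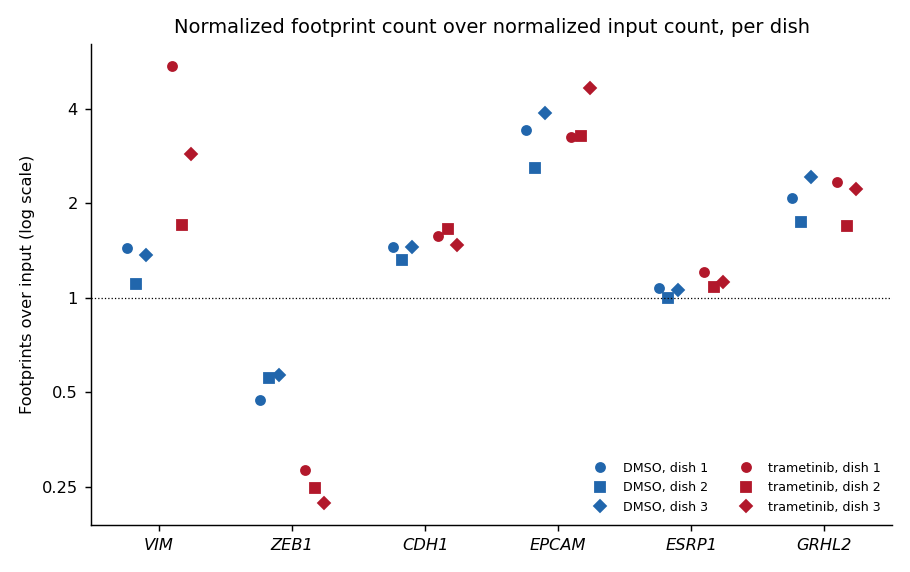
Normalized footprint count divided by normalized input count for each dish, on a log axis with a dotted line at 1, blue for DMSO and red for trametinib. The trametinib dishes of VIM (1.71 to 5.49) lie above its DMSO dishes, those of ZEB1 (0.222 to 0.284) lie below, and those of EPCAM and GRHL2 mix with DMSO.

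In DMSO alone, the ribosome density does not use the trametinib contrast. Means and percentiles here were taken after a small constant was added to both normalized counts, and the SD was taken from the dish ratios without it. The mean log2 density was 1.70 ± 0.30 for EPCAM, at the 96.9th percentile of 10623 genes, and 1.05 ± 0.24 for GRHL2, at the 87.5th percentile. CDH1 followed at 0.49 ± 0.08 and VIM at 0.37 ± 0.20, neighbours that do not differ beyond their spread, at the 68.4th and 63.5th percentiles. ESRP1 lay at 0.06 ± 0.05 and the 50.4th percentile. ZEB1 was the lowest of the 6 at -0.89 ± 0.14 and the 17.9th percentile.

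Levels between genes are compared per kilobase of annotated coding bases. In DMSO input EPCAM had 1298 and ESRP1 1222 normalized counts per kilobase, which do not differ beyond the spread of ESRP1. CDH1 had 228, GRHL2 74.5, VIM 33.1, ZEB1 9.62, CTNND1 1.54 and SNAI2 0. The epithelial genes CDH1, EPCAM, ESRP1 and GRHL2 were thus above VIM before any treatment, while the junction gene CTNND1, whose level is uncertain, was below it. In trametinib input the same scale gave 1556 for EPCAM, 705 for ESRP1, 434 for CDH1, 104 for GRHL2, 7.89 for VIM and 6.97 for ZEB1.

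Ratios within a library do not depend on the scaling of libraries. For each 1000 CDH1 counts, the DMSO input libraries held 47.1, 121 and 92.0 VIM counts and the trametinib input libraries 4.20, 16.2 and 8.70. The footprint libraries held 46.7, 101 and 86.8 with DMSO and 14.7, 16.7 and 16.9 with trametinib. Every trametinib library had the lower VIM to CDH1 ratio, in both assays. The ZEB1 counts for each 1000 CDH1 counts were 13.8, 24.5 and 29.3 in DMSO footprints, against 3.41, 3.12 and 3.27 in trametinib footprints.

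VIM was set beside 94 other 5'TOP genes, 79 for cytosolic ribosomal proteins and 15 others, of which 90 are among the 106 genes that the deposited table marks. These values are a description, since the comparison led to the choice of VIM. In input the 94 genes ranged from -0.73 (RPS23) to 0.65 (EEF1G) with a median of 0.21, so VIM at -2.08 lay below all of them. In footprints they ranged from -1.43 (RPL27) to 0.29 (PABPC1) with a median of -0.93, and 27 lay below VIM and 67 above it. In ribosome density they ranged from -2.06 (EEF1G) to 0.24 (PABPC1) with a median of -1.06, and all 94 lay below VIM at 1.05. The footprint change of VIM was therefore within the range of the other 5'TOP genes, and its input change was not. VIM was also the least abundant of them in DMSO input, at 33.1 normalized counts per kilobase of coding bases beside a median of 12780.

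The calls of the 5'TOP genes themselves are given as a description for the same reason, with no p-values. Of the 79 ribosomal protein genes, 78 were called lower in footprints and 68 in ribosome density, while 9 were higher and 1 was lower in input. The count of 9 was 20 without DMSO replicate 1. Of the 15 others, 14 were lower in footprints, 12 were lower in ribosome density and 5 were higher in input. Over all genes tested, 24.5% were called lower in footprints and 1.41% lower in ribosome density, and in input 15.4% were higher and 16.8% lower. EEF1G, a subunit of the exchange factor of translation elongation factor EF1A, had a ribosome density change of -2.06 (SE 0.23) and an input change of 0.65 (SE 0.14). EEF1B2, another subunit, had a footprint change of -1.04 (SE 0.13) and an input change of 0.02. HNRNPA1, an RNA-binding protein, had a footprint change of -1.23 (SE 0.18). PABPC1, the poly(A) binding protein, had a footprint change of 0.29 (SE 0.24), and reads it shares with near-identical copies were not counted.

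**Figure D4:**
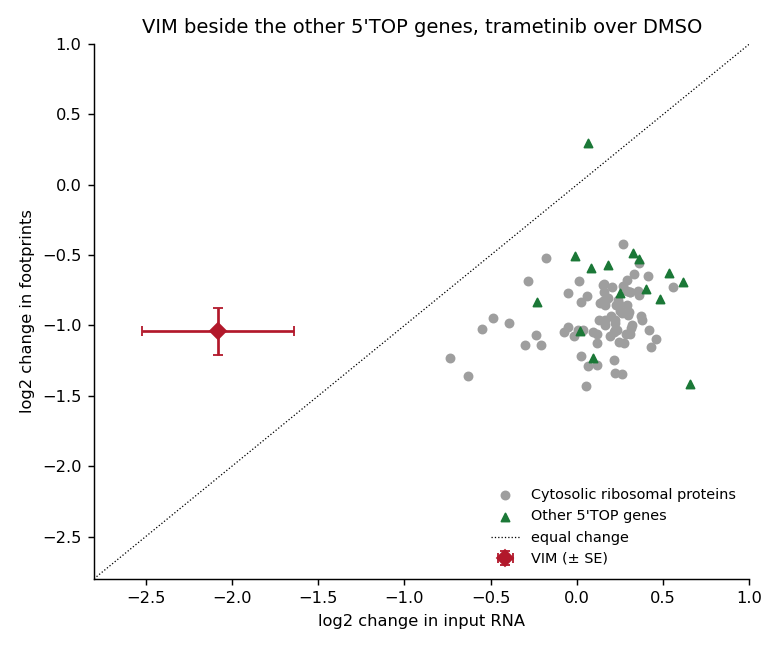
Log2 change in footprints against log2 change in input RNA, trametinib over DMSO, for 79 ribosomal protein genes (grey circles), 15 other 5'TOP genes (green triangles) and VIM (red diamond with SE in both directions). The dotted line marks equal change in both. VIM lies to the left of the line at an input change of -2.08, and all other genes but PABPC1 lie below the line at input changes of -0.73 to 0.65.

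The other genes of the same pathways were read from lists, each beside the shares over all genes given above. Of 15 further adherens junction genes, 5 were higher in input and none was lower, while footprints had 7 higher and 1 lower (VCL), with median changes of 0.36 and 0.31 beside a median of 0.00 over all genes. CDH3, the P-cadherin gene, rose in input from 1269 ± 162 to 2758 ± 144 normalized counts (1.13, SE 0.15, edgeR adjusted p = 1.06e-04) and in footprints by 1.21 (SE 0.13). NECTIN3, a junctional adhesion receptor, rose in footprints by 1.54 (SE 0.13, edgeR adjusted p = 1.87e-05). NECTIN4 of the same family rose in footprints by 2.70 (SE 0.32, edgeR adjusted p = 1.92e-04) from a low level of 5.57 ± 2.90, and its input call rests on a gene that passed the filter through trametinib alone.

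Of 19 tight junction and polarity genes tested in input, 6 were higher and 1 (SCRIB) was lower, and of 20 tested in footprints the counts were again 6 and 1. Without DMSO replicate 1, 13 were higher in footprints. Their median changes were 0.24 in input and 0.20 in footprints. CGN, the junctional adaptor cingulin, rose in input by 2.03 (SE 0.26, edgeR adjusted p = 7.73e-05) and in footprints by 2.03 (SE 0.21). TJP3, a junction scaffold, rose in input by 1.68 (SE 0.15, edgeR adjusted p = 3.97e-06) and in footprints by 1.24 (SE 0.15). PRKCZ, an atypical protein kinase C of the polarity complex, rose in footprints by 0.79 (SE 0.12, edgeR adjusted p = 8.22e-04).

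Of 9 desmosome genes tested in input, 6 were higher, and of 10 tested in footprints 6 were higher and 1 (EVPL) was lower. Of the 6 in footprints, PKP1 passed the filter through trametinib alone. The medians were 0.51 and 0.67. The desmosomal cadherins DSC3 and DSC2 rose in footprints by 1.62 (SE 0.12, edgeR adjusted p = 9.14e-06) and 1.40 (SE 0.11, edgeR adjusted p = 1.25e-05). PKP2, a desmosomal plaque protein, rose in footprints by 0.69 (SE 0.10, edgeR adjusted p = 5.65e-04).

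Of 22 epithelial identity genes tested in input, 10 were higher and 1 (KLF4) was lower, with 1 of the 10 past the filter through trametinib alone, and of 27 in footprints 15 were higher and 2 (KLF4 and LAD1) were lower, with medians of 0.60 and 0.54. ELF3, an epithelial ETS factor, rose in input from 690 ± 121 to 4110 ± 173 normalized counts (2.58, SE 0.16, edgeR adjusted p = 1.82e-07). MUC1, a surface mucin, rose in footprints from 3.30 ± 0.37 to 20.6 ± 5.61 (2.64, SE 0.32, edgeR adjusted p = 1.96e-04).

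Of 13 further EMT transcription factors in the table, 4 could be tested in input, of which 3 were lower. In footprints 9 were tested, of which 4 were lower (FOSL1, FOXC1, HMGA2 and SNAI1) and 2 higher (SNAI3 and KLF8), with a median of -0.32. KLF8 passed the filter through the trametinib libraries alone, so that its call had to be upward. FOSL1, an AP-1 subunit induced by ERK signaling, fell in input by 4.09 on the log2 scale (SE 0.45, edgeR adjusted p = 2.19e-05), from a DMSO level that varied widely (486 ± 299 normalized counts). FOXC1, a forkhead factor, fell in footprints by 2.26 (SE 0.15, edgeR adjusted p = 4.70e-06). HMGA2, a chromatin protein, fell in footprints by 1.74 (SE 0.24, edgeR adjusted p = 4.61e-04).

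Mesenchymal markers other than VIM moved in both directions. Of 19 tested in input, 6 were higher and 5 were lower, and of 21 in footprints 6 were higher and 4 lower, with medians of 0.00 and 0.14. Without DMSO replicate 1, 10 were higher in footprints. VCAN, the matrix proteoglycan versican, fell in input from 1056 ± 111 to 329 ± 49.0 normalized counts (-1.67, SE 0.17, edgeR adjusted p = 9.29e-06). FN1, the matrix protein fibronectin, rose in input from 152 ± 6.79 to 361 ± 28.3 (1.25, SE 0.17, edgeR adjusted p = 1.33e-04). L1CAM, an adhesion molecule, rose in footprints by 1.44 (SE 0.13, edgeR adjusted p = 3.17e-05). VIM and FN1, both common markers of the mesenchymal state, thus lay on opposite sides of 0.

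Among 20 genes for partners of vimentin in the cytoskeleton, input had 3 called higher and 4 lower, and footprints had 4 higher and 6 lower. The count of 3 was 7 without DMSO replicate 1. PLK1, a mitotic kinase that phosphorylates vimentin, changed in input by -4.49 (SE 0.20, edgeR adjusted p = 3.31e-08). LMNB1, a lamin of the nuclear intermediate filaments, changed in input by -2.39 (SE 0.18, edgeR adjusted p = 9.84e-07). SYNM, which encodes the intermediate filament protein synemin that pairs with vimentin, rose in footprints from 13.5 ± 2.49 to 81.2 ± 8.93 normalized counts (2.61, SE 0.19, edgeR adjusted p = 1.05e-05). Ribosome density was fitted for 108 genes from the adherens junction, tight junction, desmosome, epithelial, EMT factor, mesenchymal and vimentin partner lists. Of these, 0 were called by DESeq2 and 0 by edgeR, although NECTIN4 had no DESeq2 adjusted p and could not be called by it. An unadjusted DESeq2 p was under 0.05 for 7 of the 108, beside 7.87% of all genes in this fit.

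**Figure D5:**
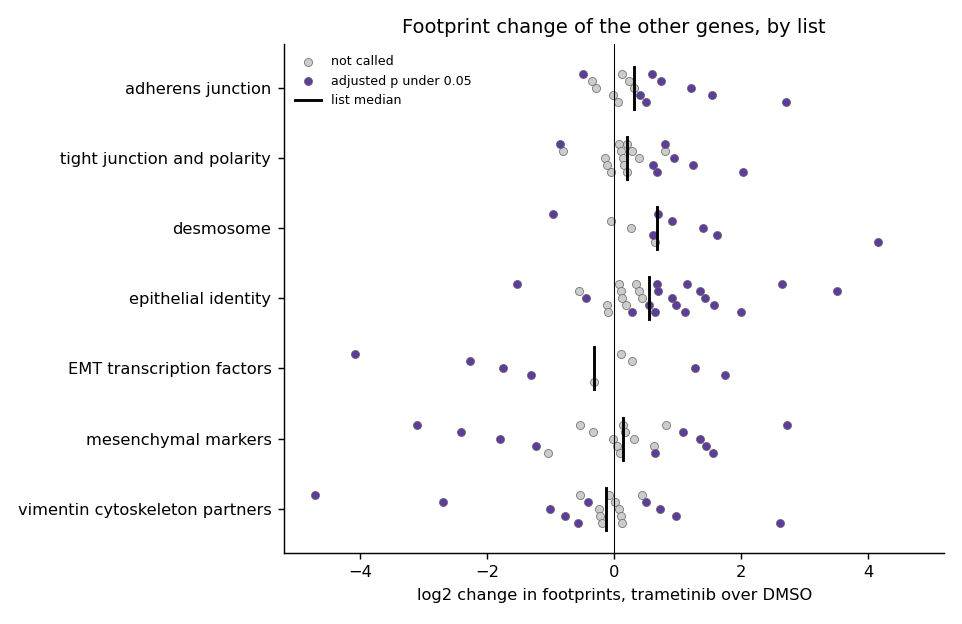
Log2 change in footprints of the genes in 7 lists, 1 point per gene, purple where the edgeR adjusted p is under 0.05 and grey otherwise, with a bar at the list median. The medians of the 4 epithelial lists lie between 0.20 and 0.67, that of mesenchymal markers lies at 0.14 and that of EMT transcription factors at -0.32, and every list has genes on both sides of 0.

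The ERK pathway output genes showed the treatment in these libraries, with 9 of 10 lower and 1 (EPHA4) higher in both assays. Of the 9, 5 passed the input filter through DMSO alone, DUSP6 among them, so that their input calls had to be downward. DUSP6, a phosphatase of ERK, went from 1392 ± 206 to 6.58 ± 6.10 normalized input counts.

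The genes whose pattern over the 12 libraries was most like that of VIM by Pearson's r were HUS1, MSTO1, CFAP20, FERMT1 and AGPAT5, among 6791 genes with a mean of at least 100 normalized counts in each assay. On log2 normalized counts centred within each assay, r was 0.944, 0.944, 0.933, 0.930 and 0.926, and all genes share the 12 libraries and the treatment contrast among them. By Spearman's rho these genes ranked 1, 3, 22, 96 and 180. FERMT1 had an input change of -1.40 (SE 0.24) and a footprint change of -0.68 (SE 0.13). HUS1 had only -0.35 (SE 0.21) and -0.22 (SE 0.12). On the same scale r to VIM was -0.68 for CDH1, -0.60 for GRHL2, -0.50 for EPCAM and 0.55 for ESRP1. Spearman's rho for these genes was -0.699, -0.629, -0.552 and 0.825 in the same order. ZEB1, CTNND1 and SNAI2 fell under the level cut.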

How the data were processed

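Per the study's methods, the authors treated cells with cycloheximide, digested lysates with RNase I, took monosomal footprints and fragmented input RNA, and kept reads of 25 to 35 bases. They removed rRNA and tRNA reads with Bowtie 1.2.2, mapped to Gencode basic transcripts (GRCh38) and counted reads in reading frames of 1 gene symbol. Their deposited table gives raw counts per library, made by the authors, and a normalized signal, the counts divided by size factors. Recomputed median-of-ratios size factors equalled theirs within a relative difference of 1e-06 in 12 of 12 libraries. Its fold changes and adjusted p-values (DESeq2 1.46.0) hold the authors' own comparisons and were not used.

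Counts were tested within each assay by edgeR 4.0.16 (TMM scaling, a minimum of 10 counts in 3 of the 6 libraries), and ribosome density by the interaction of assay and treatment in DESeq2 1.42.0 (likelihood ratio test, the same filter in each assay), in R 4.3.3. P-values were two-sided and adjusted by the Benjamini-Hochberg method. Both tests were checked on simulated counts, with large planted changes in well-counted genes, a single spread and no replicate effect. That check does not cover genes counted as little as VIM, ZEB1 and CTNND1, or a replicate that stands apart. The median SE of a log2 change was 0.217 in input, 0.160 in footprints and 0.294 in ribosome density. Dish ratios were taken between normalized counts. Gene positions, coding bases (union over basic transcripts) and transcript starts came from Gencode v44, the same build.

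Groups and replicate numbers came from the labels. Deviations of same-numbered libraries from their group means were correlated over 7669 genes. Between DMSO and trametinib they gave 0.117, 0.133 and 0.294 in footprints, and 0.068, 0.0484 and 0.334 in input. Within a dish, input against footprints gave 0.816, 0.181 and 0.343 for DMSO, and 0.141, 0.0803 and -0.122 for trametinib. Differently numbered libraries were not compared, so these values do not decide whether the numbers pair the samples. The 8 genes and all gene lists were chosen with earlier results of these data known. Of each list, at most 3 genes with the smallest footprint p among those called were named (PABPC1 as a 5'TOP gene that did not go down, EEF1G also for ribosome density), and other genes named for a small count were chosen after their values were seen. A further epithelial identity gene that this rule names is not reported here. PALS1, ZEB2, TWIST2, GSC, CDH11, LOX, LUM and HBB were not analysed here. Alternatives were another test, scaling and filter, a replicate block and leaving out each library.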

Additional observations from a re-analysis of the deposited data

How the results depend on the processing

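Of 338 values recomputed under alternatives, 292 kept direction and side of the threshold or stayed within the replicate spread, 33 moved, 10 lost a call and 3 gained one, and for the 8 genes these counts were 213, 12, 10 and 3 of 238. No called value changed sign, and 15 uncalled ones did, all for ribosome density (CDH1 in 3 of 18 alternatives, ESRP1 in 3 and GRHL2 in 9). Requiring an at least 2-fold change cut the genes called higher and lower to 725 and 933 in input and to 1039 and 1133 in footprints. The Wald test of DESeq2 called ESRP1 footprints (-0.71, DESeq2 adjusted p = 0.0319). Genes with a higher ribosome density numbered 9 with edgeR, 20 with size factors within each assay and 22 with the replicate block over all libraries, and those with a lower one 87 with edgeR. The replicate block changed no call of the 6 genes tested (CDH1, CTNND1, EPCAM, ESRP1, GRHL2 and ZEB1). Library totals as the scaling moved the median footprint change of all genes by 0.18, and with it VIM to -0.86, ZEB1 to -1.37, EPCAM to 0.62 and GRHL2 to 0.66. Leaving out 1 library gave 1069 to 1767 genes higher in input, 7 to 36 with a higher ribosome density, CDH1 input 0.72 to 1.37, ESRP1 input -0.99 to -0.27, EPCAM footprints 0.37 to 0.55, ESRP1 footprints -0.90 to -0.15, CDH1 ribosome density -0.30 to 0.62 and ESRP1 ribosome density -0.41 to 0.66. The lowest density count came without trametinib input replicate 2 and the lowest input count without trametinib replicate 2. The density ranges of CDH1 and ESRP1 came from leaving out 1 library of a dish and keeping the other. With both libraries of DMSO dish 1 left out, a choice made after seeing the data, VIM and ZEB1 ribosome density were 1.14 and -1.18. In the same fit CDH1 and ESRP1 ribosome density were 0.18 and 0.14. Spearman's rho of AGPAT5 to VIM was 0.825. The cause of these shifts was not tested. Low counts limit VIM, ZEB1, CTNND1 and SNAI2 in input, and for CTNND1 depth and uncounted shared reads cannot be told apart.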

Other observations

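Some genes of the EMT lists that were called but not described above were read after their values were seen. SNAI1, the repressor related to SNAI2, held 15, 8 and 19 raw input counts in DMSO and 5, 3 and 4 in trametinib, too few for a fit, and its footprints changed by -1.31 (SE 0.18, edgeR adjusted p = 4.75e-04). THBS1, the matrix protein thrombospondin, rose in both assays, by 2.82 in input (SE 0.26, edgeR adjusted p = 4.74e-06) and by 2.71 in footprints (SE 0.26). NT5E, a surface nucleotidase, held 623, 242 and 211 raw counts in DMSO input and 69, 77 and 78 in trametinib input, and its DMSO replicate 1 stood apart as it did for CDH1 and ESRP1. KLF8 held 8, 2 and 4 raw footprint counts in DMSO and 19, 16 and 17 in trametinib.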
